A study of Homo sapiens with 12 samples.

Results

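The 10 genes described here encode the subunits that are mostly particular to NuRD, the nucleosome remodelling and deacetylase complex: MTA1, MTA2, MTA3, CHD3, CHD4, GATAD2A, GATAD2B, MBD2, MBD3 and CDK2AP1. They were chosen by name, as the rows of the deposited count table whose Ensembl identifiers map to these symbols, and all 10 were found among its 63541 rows and among the 21999 genes that passed the filter on low counts. They were measured by poly(A)+ RNA-seq in HEK293T cells, an established human embryonic kidney line that carries the large T antigen of a simian virus. Cells received 12.5 nM of a scramble control siRNA or of 1 of 3 siRNAs against snaR-A, a small noncoding RNA made by RNA polymerase III, and were collected after 48 h. The siRNAs, sisnaR-A-1, -2 and -3 in the labels, are called siRNA 1, siRNA 2 and siRNA 3. Their sequences, as listed by the study, overlap. That of siRNA 2 lies within that of siRNA 3, and siRNA 1 shares most of its bases with both. Each of the 4 groups had 3 libraries, which the study calls biological replicates, all groups shared the line and the transfection reagent, and no other agent or allele was named. The study asked how loss of snaR-A alters mRNAs. The loss itself was not checked here.

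NuRD joins 2 activities in 1 complex. HDAC1 and HDAC2 remove acetyl groups from histones, while CHD3 or CHD4 spends ATP to move nucleosomes. MTA proteins form the scaffold that holds the deacetylases and the histone chaperones RBBP4 and RBBP7, MBD2 or MBD3 sits beside it, GATAD2A or GATAD2B bridges the MBD protein and the CHD motor, and CDK2AP1 is a small accessory subunit. Most of these positions are filled by 1 of several paralogs at a time, and the complex is best known for silencing genes and for closing enhancers during changes of cell identity.

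Libraries held 120368367 to 180111992 estimated counts, and replicates of a group differed by 13.0 to 63.0 times the sampling noise (chi-square per degree of freedom). In such bulk samples, a change in the share of cells that express a gene and a change in its RNA per cell cannot be told apart. Levels are CPM, each library's counts rescaled to a common total, after TMM scaling, which aligns libraries on the bulk of their genes, and differences are log2 fold changes with their SE. A difference was called at an adjusted p under 0.05 by edgeR's quasi-likelihood test with Benjamini-Hochberg adjustment over all tested genes. All adjusted p-values of single genes come from this test unless another is named. Of the markers examined, KRT8, KRT18, EPCAM and CDH1 of epithelium and PAX2 of the kidney lineage were detected in all libraries, while PAX8 did not pass the filter. LHX1, also of the kidney lineage, passed it at only 0.121 to 0.889 CPM. CDH1 stood at 10.6 ± 0.340 CPM in scramble (SD, n = 3). It was lower with each siRNA, at 6.23 ± 0.377, 7.72 ± 0.189 and 8.79 ± 0.106 with siRNA 1, 2 and 3. PAX2 was at 5.49 ± 0.117 CPM in scramble and 7.25 ± 0.0916 with siRNA 1. With siRNA 2 and siRNA 3 it was at 4.96 ± 0.401 and 5.79 ± 0.333. KRT18 had the highest level of the 4 epithelial markers. The summed level of the 4 epithelial markers was 48.7 to 52.0 CPM in scramble and 44.2 to 54.0 in the siRNA libraries. That of the 3 neuronal filament genes NEFL, NEFM and INA was 415 to 442 CPM in scramble, 412 to 453 with siRNA 1, 671 to 692 with siRNA 2 and 514 to 524 with siRNA 3, and INA went from 12.1 ± 0.250 in scramble to 3.69 ± 0.205 with siRNA 1 (SD, n = 3). Of the 4 markers of other cells, the leukocyte gene PTPRC and the endothelial gene PECAM1 had at most 18 and 20 counts in a library and DCN at most 52, while COL1A1 was at 24.5 to 27.0 CPM in scramble, 22.4 to 23.0 with siRNA 1, 19.0 to 21.6 with siRNA 2 and 13.0 to 14.5 with siRNA 3. The part of these shifts in the results below was not tested.

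In brief, MTA1 was higher and MBD3 was lower with each of the 3 siRNAs. CDK2AP1 was lower in the mean of the siRNAs, most with siRNA 2. The largest difference was that of GATAD2A, which rose with siRNA 1 by 0.99 on the log2 scale and less with siRNA 2, while MTA3 and CHD4 fell with siRNA 1. MTA2 and MBD2 were called in opposite directions with different siRNAs. Each call of these 2 genes, and the siRNA 1 call of MBD3, was lost in some of the alternative runs described below.

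The upstream windows shown here are those of MTA1, which rose with every siRNA, of its paralog MTA2, which did not, and of GATAD2A. All 10 members were matched by symbol to the RefSeq promoter table (GRCh38.p14), and for 7 of them the start lay within 100 bases of the canonical GENCODE start. Each run gives the 250 bases before the start on the gene's own strand, at chr14:105419577-105419826 (plus strand) for MTA1, chr11:62601866-62602115 (minus strand) for MTA2 and chr19:19405425-19405674 (plus strand) for GATAD2A. Capitals mark every match, on either strand, to a GC box (GGGCGG) or an ETS site (CCGGAAG). In MTA2, ETS matches on the opposite strands overlap in 1 run of capitals, and in GATAD2A an ETS match overlaps a GC box.
MTA1: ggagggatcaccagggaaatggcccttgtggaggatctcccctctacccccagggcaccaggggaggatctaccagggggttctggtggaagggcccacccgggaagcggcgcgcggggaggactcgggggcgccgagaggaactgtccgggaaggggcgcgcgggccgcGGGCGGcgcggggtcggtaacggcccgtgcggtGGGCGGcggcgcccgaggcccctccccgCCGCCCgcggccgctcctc
MTA2: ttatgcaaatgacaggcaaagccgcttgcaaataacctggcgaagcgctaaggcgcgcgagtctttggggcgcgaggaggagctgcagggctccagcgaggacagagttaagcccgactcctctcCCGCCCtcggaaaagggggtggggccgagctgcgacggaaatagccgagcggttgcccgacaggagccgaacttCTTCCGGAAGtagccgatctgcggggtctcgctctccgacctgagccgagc
GATAD2A: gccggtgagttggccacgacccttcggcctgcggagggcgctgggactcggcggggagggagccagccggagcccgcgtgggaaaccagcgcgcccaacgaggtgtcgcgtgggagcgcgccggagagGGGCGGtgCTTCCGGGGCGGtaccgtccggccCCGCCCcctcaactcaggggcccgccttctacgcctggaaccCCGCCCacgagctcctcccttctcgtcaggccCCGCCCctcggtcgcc
The GC boxes numbered 3 in MTA1, 1 in MTA2 and 5 in GATAD2A, and 42.64% of the 35116 promoter windows of the table hold at least 1. ETS sites were matched in MTA2 (2) and GATAD2A (1), against 8.517% of all windows. Of the 7 windows, 6 held a GC box, 2 a CCAAT box (CCAAT, 32.01% of all windows), 2 an ETS site and 0 an E-box (CACGTG, 6.345%). The windows of MTA1, MTA2 and GATAD2A held 30, 25 and 32 CG dinucleotides, against a median of 11 over all windows. Those of GATAD2B, MBD2 and MBD3 held 17, 21 and 32, and that of CHD3 held 9. Matches to short letters are a description of the windows and not evidence of binding.

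Counted over the members, siRNA 1 gave calls for all 10, 5 higher and 5 lower. Over all tested genes 45.2% were called with siRNA 1, 21.9% higher and 23.3% lower. With siRNA 2, 6 members were called (3 higher, 3 lower), beside 25.8% of all genes (13.7% higher, 12.1% lower). With siRNA 3, 4 members were called (3 higher, 1 lower), beside 29.4% of all genes (16.5% higher, 13.0% lower). In the mean of the 3 siRNAs, 7 members were called (3 higher, 4 lower), beside 32.2% of all genes (15.6% higher, 16.6% lower). The members all average above 1 CPM. With only the 14538 genes above that level tested, 9037 were called with siRNA 1, 5855 with siRNA 2, 6487 with siRNA 3 and 7041 in the mean. Each is a larger share than over all tested genes. The percentages above therefore understate the share called among genes expressed at such levels. The median log2 fold change of the members was -0.01 with siRNA 1, -0.01 with siRNA 2 and 0.02 with siRNA 3, close to the medians of all genes at -0.02, -0.03 and -0.03. Without scramble replicate 2, scramble replicate 3 or siRNA 1 replicate 1, 6 members were called with siRNA 1, and without scramble replicate 3, 4 were called in the mean. Over all genes, 8606 of 22598, 8962 of 22517 and 8998 of 22562 were called with siRNA 1 in these runs. In the mean, 5816 of 22517 were called without scramble replicate 3. The direction split of all genes depends on the scaling: with upper quartile scaling, 2439 genes were higher and 3584 lower with siRNA 2, in place of 3018 and 2655, and 2885 higher and 3874 lower with siRNA 3, in place of 3619 and 2855. The 3 comparisons share the scramble libraries, and the siRNAs are therefore also compared with each other below.

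**Figure D1:**
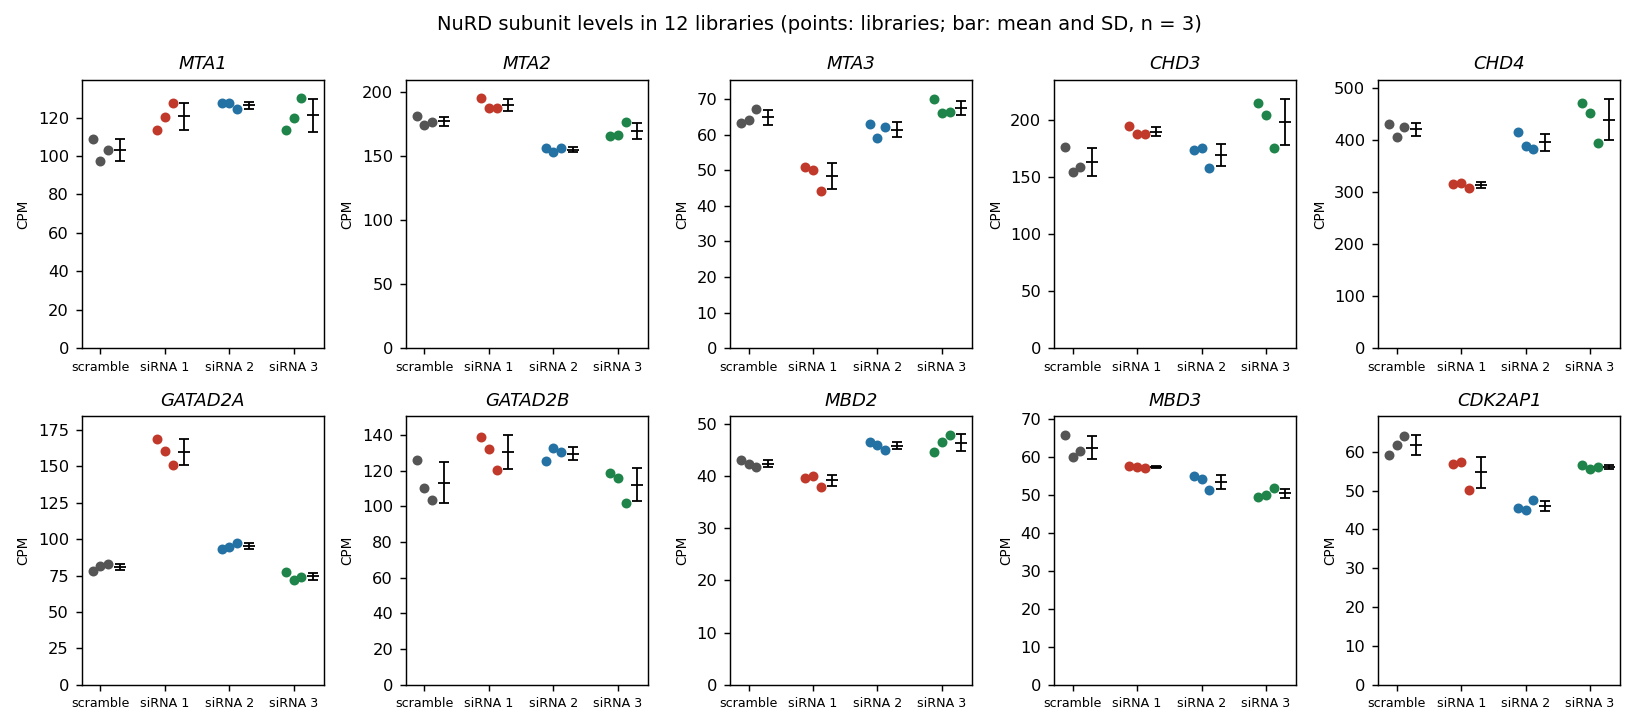
Level of each NuRD-specific subunit in CPM (vertical axis, from 0) in the scramble, siRNA 1, siRNA 2 and siRNA 3 groups. Points are the 3 libraries of a group and the bar beside them is their mean and SD. MTA1 lies above scramble in all 9 siRNA libraries, and GATAD2A stands apart in siRNA 1.

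MTA1 (ENSG00000182979, chr14:105419820-105470729, plus strand, GRCh38) encodes the scaffold subunit first linked with metastasis. It stood at 108.9, 97.5 and 103.0 CPM in the scramble libraries. It reached 113.8, 120.5 and 127.5 CPM with siRNA 1, 127.4, 127.7 and 124.5 with siRNA 2, and 113.6, 119.6 and 130.2 with siRNA 3. All 9 siRNA libraries lay above all 3 scramble libraries, although the lowest of them exceeded the highest scramble library only narrowly. The log2 fold change was 0.23 ± 0.06 with siRNA 1 (adjusted p = 0.00597), 0.29 ± 0.06 with siRNA 2 (0.00217) and 0.23 ± 0.06 with siRNA 3 (0.0085), all by edgeR. In the mean of the siRNAs it was 0.25 ± 0.05 (adjusted p = 0.00133). MTA1 was the 1 member called higher with all 3 siRNAs, and these 4 calls held under every alternative run, although removing a trend on GC content and transcript length moved the siRNA 1 value to 0.11 (adjusted p = 0.039) and the siRNA 3 value to 0.35.

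MTA2 (chr11:62593214-62601865, minus strand) encodes the paralog with the highest level per kb of the 3. It stood at 181, 174 and 176 CPM in scramble, at 196, 187 and 187 with siRNA 1, at 156, 153 and 156 with siRNA 2, and at 166, 166 and 177 with siRNA 3. The siRNA 1 libraries were all above scramble and the siRNA 2 libraries all below, while siRNA 3 overlapped it. MTA2 was called higher with siRNA 1 (0.10 ± 0.04, adjusted p = 0.0382) and lower with siRNA 2 (-0.19 ± 0.04, adjusted p = 0.00182), and it was not called with siRNA 3 (-0.06 ± 0.04, adjusted p = 0.214). The siRNA 1 call was lost in 9 of 22 alternatives, among them leaving out siRNA 1 replicate 1 (0.08, adjusted p = 0.138), scramble replicate 2 (0.09, 0.133) or scramble replicate 3 (0.10, 0.0694), and, through the shared estimate of spread, siRNA 2 replicates 1, 2 or 3 (0.0596, 0.0542 and 0.058) or siRNA 3 replicate 2 (0.0553). With the GC and length trend removed, the siRNA 1, 2 and 3 values were 0.06 (adjusted p = 0.231), -0.08 (0.105) and 0.04 (0.429). The siRNA 3 value became a call with upper quartile scaling (-0.12, adjusted p = 0.0197) and with only genes of at least 1 CPM tested (-0.09, 0.0438).

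MTA3 (chr2:42494569-42756947, plus strand) encodes the scaffold best known from oestrogen-responsive epithelium. It stood at 63.2, 64.1 and 67.4 CPM in scramble and at 51.0, 50.2 and 44.3 with siRNA 1. It was at 63.0, 59.1 and 62.3 CPM with siRNA 2 and at 70.0, 66.2 and 66.5 with siRNA 3. The siRNA 1 libraries were well below all others, and the other groups lay close together. MTA3 fell with siRNA 1 by 0.42 ± 0.05 on the log2 scale (adjusted p = 3.05e-05), and its values were -0.08 ± 0.05 with siRNA 2 (adjusted p = 0.325) and 0.06 ± 0.05 with siRNA 3 (adjusted p = 0.453). The mean of the siRNAs was called (-0.15 ± 0.04, adjusted p = 0.0193) but lost its call without scramble replicate 2 (-0.15, adjusted p = 0.0528) or scramble replicate 3 (-0.11, adjusted p = 0.14).

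CHD4 (chr12:6570082-6614524, minus strand), the main ATPase motor of NuRD, was the most abundant member in CPM. It stood at 432, 407 and 424 CPM in scramble and at 316, 318 and 308 with siRNA 1. With siRNA 2 it was at 415, 389 and 383 CPM and with siRNA 3 at 471, 451 and 395. The siRNA 1 libraries were below all others, while those of siRNA 2 and siRNA 3 overlapped scramble. CHD4 fell with siRNA 1 by 0.42 ± 0.06 on the log2 scale (adjusted p = 6.26e-05), and its values were -0.09 ± 0.06 with siRNA 2 (adjusted p = 0.307) and 0.06 ± 0.06 with siRNA 3 (adjusted p = 0.473). The mean of the siRNAs was called (-0.15 ± 0.05, adjusted p = 0.0272), but not without scramble replicate 1 (-0.13, adjusted p = 0.117), scramble replicate 3 (-0.13, 0.122) or siRNA 1 replicate 2 (-0.15, 0.0528). A coding gene annotated on the same strand, ENSG00000285238, overlaps 46.9% of the exon bases of CHD4 and had at most 101 counts in a library, against 39217 to 79700 for CHD4.

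CHD3 (chr17:7884796-7912760, plus strand) encodes the alternative motor. It stood at 176, 154 and 158 CPM in scramble, at 195, 187 and 187 with siRNA 1, at 174, 175 and 158 with siRNA 2, and at 215, 204 and 175 with siRNA 3. The siRNA 1 libraries were all above scramble, and siRNA 3 replicate 3 overlapped it. CHD3 was called higher with siRNA 1 (0.22 ± 0.07, adjusted p = 0.0258) and with siRNA 3 (0.28 ± 0.07, adjusted p = 0.011) and not with siRNA 2 (0.05 ± 0.07, adjusted p = 0.655). The siRNA 3 call held under every alternative run, whereas the siRNA 1 call was lost with the GC and length trend removed (0.11, adjusted p = 0.135) and without scramble replicate 2 (0.18, 0.105), scramble replicate 3 (0.20, 0.0779) or siRNA 1 replicate 1 (0.20, 0.0774). The mean of the siRNAs was called (0.18 ± 0.06, adjusted p = 0.0322) and was lost in 7 of 20 alternatives, which include leaving out scramble replicate 2 (0.15, 0.161), scramble replicate 3 (0.17, 0.104), siRNA 1 replicate 1 (0.18, 0.0512), siRNA 2 replicates 1 or 2 (0.18, 0.0542 and 0.0544) or siRNA 3 replicate 2 (0.18, 0.0549).

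CHD3, CHD4 and GATAD2B have long transcripts, and replicates of a group differed in how their deviations followed transcript length. Over 9859 genes, Spearman's rho of a library's deviation from its group mean with canonical transcript length was 0.54 in siRNA 3 replicate 1 and -0.60 in siRNA 3 replicate 3, and 0.34 and -0.42 in scramble replicates 1 and 3. In siRNA 3, CHD3, CHD4 and GATAD2B were highest in replicate 1 and lowest in replicate 3. HDAC2 and RBBP4, with longer canonical transcripts (9.737 and 7.883 kb), ran the other way there. HDAC2 was at 438, 441 and 457 CPM and RBBP4 at 404, 418 and 421. The part of transcript length in these orders was not tested. The differences of group means from scramble followed GC content, with rho of 0.34 for siRNA 1, -0.13 for siRNA 2 and -0.13 for siRNA 3. With both trends removed, CHD3 with siRNA 3 was 0.31 (adjusted p = 0.000731) and CHD4 with siRNA 1 was -0.49 (adjusted p = 1.94e-06).

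GATAD2A (chr19:19385826-19508932, plus strand), a bridging subunit, gave the largest difference among the members. It stood at 78.4, 81.3 and 82.7 CPM in scramble and at 169, 161 and 151 with siRNA 1. With siRNA 2 it was at 93.6, 94.7 and 97.4 CPM and with siRNA 3 at 77.2, 72.2 and 74.3. The siRNA 1 libraries were far above every other library, siRNA 2 was also above scramble in all 3 libraries, and siRNA 3 was below it in all 3. GATAD2A rose with siRNA 1 by 0.99 ± 0.04 on the log2 scale (adjusted p = 5.57e-09) and with siRNA 2 by 0.24 ± 0.04 (adjusted p = 0.00177), and was -0.12 ± 0.04 with siRNA 3 (adjusted p = 0.0695). Both calls held under every alternative run. The siRNA 3 value became a call with upper quartile scaling (-0.17, adjusted p = 0.00519), with only genes of at least 1 CPM tested (-0.14, 0.0104) and without siRNA 1 replicate 3 (-0.11, 0.0438). The mean of 0.37 ± 0.04 (adjusted p = 9.98e-06) therefore averages unlike values.

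GATAD2B (chr1:153789030-153923360, minus strand), its paralog, stood at 126, 110 and 104 CPM in scramble, at 139, 132 and 120 with siRNA 1, at 125, 133 and 130 with siRNA 2, and at 119, 116 and 102 with siRNA 3. The scramble libraries spread widely and overlapped every siRNA group. GATAD2B was called with siRNA 1 (0.20 ± 0.08, adjusted p = 0.0467), and not with siRNA 2 (0.19 ± 0.08, adjusted p = 0.0882) or siRNA 3 (-0.02 ± 0.08, adjusted p = 0.904). The siRNA 1 call was lost in 8 of 22 alternatives, each leaving out 1 library: scramble replicates 2 or 3 (0.18, adjusted p = 0.129, and 0.15, 0.172), siRNA 1 replicates 1 or 2 (0.15, 0.17, and 0.20, 0.0994), siRNA 2 replicates 1, 2 or 3 (0.0595, 0.0597 and 0.0622) or siRNA 3 replicate 2 (0.0591). Without scramble replicate 1, its highest control, the siRNA 2 value (0.28, adjusted p = 0.0198) and the mean of the siRNAs (0.21, adjusted p = 0.0307, from 0.13 and 0.153) became calls. The siRNA 2 value was a call in 8 of 22 alternatives: these were also edgeR's exact test (0.20, 0.00819), DESeq2 (0.22, 0.0176), a fit on only the groups compared (0.20, 0.031), the replicate block (0.20, 0.0323), no filter on low counts (0.20, 0.0488), removal of the GC and length trend (0.23, 0.0134) and leaving out siRNA 1 replicate 3 (0.21, 0.0455).

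**Figure D2:**
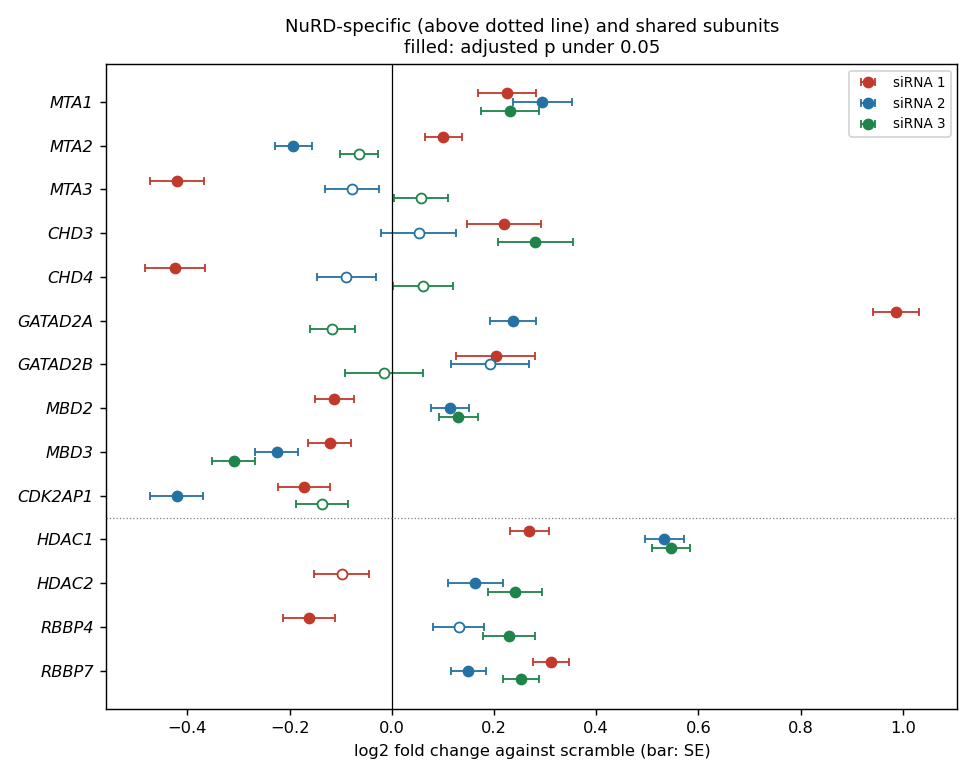
Log2 fold change against scramble (horizontal axis) of the 10 NuRD-specific subunits, above the dotted line, and of the 4 shared subunits below it, for siRNA 1, siRNA 2 and siRNA 3. Bars are SE and filled points have an adjusted p under 0.05 by edgeR. MTA1, HDAC1 and RBBP7 have 3 filled points to the right of 0, MBD3 has 3 to the left, and GATAD2A with siRNA 1 is farthest right at 0.99.

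MBD3 (chr19:1573596-1592865, minus strand) encodes the MBD subunit that, in mammals, has little affinity for methylated DNA. It stood at 65.8, 59.9 and 61.6 CPM in scramble, at 57.6, 57.4 and 57.2 with siRNA 1, at 54.9, 54.2 and 51.2 with siRNA 2, and at 49.4, 49.9 and 51.8 with siRNA 3. All 9 siRNA libraries lay below all 3 scramble libraries. MBD3 fell with siRNA 1 (-0.12 ± 0.04, adjusted p = 0.0326), siRNA 2 (-0.23 ± 0.04, adjusted p = 0.0017) and siRNA 3 (-0.31 ± 0.04, adjusted p = 0.00014), and in their mean (-0.22 ± 0.03, adjusted p = 0.000317). All but the siRNA 1 call held under every alternative run, and with the GC and length trend removed the siRNA 2 value was -0.12 (adjusted p = 0.038) and the siRNA 1 value -0.30. The siRNA 1 call was lost in 7 of 22 alternatives, among them leaving out scramble replicate 1 (-0.08, adjusted p = 0.142) or siRNA 1 replicates 1 or 2 (-0.12, 0.0642, and -0.12, 0.0638).

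A coding gene on the same strand, ENSG00000267059, overlaps 9.7% of the exon bases of MBD3. It had a mean of 1080 ± 147 counts in scramble, 357 ± 48.3 with siRNA 1, 1106 ± 21.9 with siRNA 2 and 1034 ± 35.2 with siRNA 3 (SD, n = 3). It was thus low in the siRNA 1 libraries alone, and reads within the overlap could be assigned to either gene. With its counts added to those of MBD3, the siRNA 1 value was -0.21.

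MBD2 (chr18:54151606-54224669, minus strand), which binds methylated CpG, stood at 43.0, 42.2 and 41.7 CPM in scramble and at 39.5, 40.0 and 37.9 with siRNA 1. With siRNA 2 it was at 46.4, 45.9 and 45.0 CPM and with siRNA 3 at 44.6, 46.4 and 47.9. The siRNA 1 libraries were all below scramble and those of siRNA 2 and siRNA 3 all above it, by small amounts. MBD2 was called lower with siRNA 1 (-0.11 ± 0.04, adjusted p = 0.0275) and higher with siRNA 2 (0.11 ± 0.04, 0.0416) and siRNA 3 (0.13 ± 0.04, 0.0199). These calls were lost in 7, 11 and 7 of 22 alternatives. Leaving out single libraries gave -0.13 to -0.09 with siRNA 1 (adjusted p up to 0.0811, lost without scramble replicates 1 or 2 or siRNA 1 replicate 3), 0.11 to 0.13 with siRNA 2 (up to 0.124, lost without any scramble or siRNA 2 library, siRNA 1 replicate 1 or siRNA 3 replicate 2) and 0.11 to 0.16 with siRNA 3 (up to 0.0726, lost without scramble replicate 2 or siRNA 3 replicates 2 or 3), and upper quartile scaling gave 0.07 and 0.08 with siRNA 2 and siRNA 3.

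CDK2AP1 (chr12:123250112-123272334, minus strand), the small accessory subunit, stood at 59.0, 61.7 and 64.2 CPM in scramble, at 56.8, 57.3 and 50.2 with siRNA 1, at 45.6, 45.0 and 47.6 with siRNA 2, and at 56.6, 55.7 and 56.0 with siRNA 3. All 9 siRNA libraries were below all 3 scramble libraries, and the siRNA 2 libraries were the lowest. CDK2AP1 fell with siRNA 2 by 0.42 ± 0.05 on the log2 scale (adjusted p = 6.63e-05) and with siRNA 1 by 0.17 ± 0.05 (adjusted p = 0.0152), and was -0.14 ± 0.05 with siRNA 3 (adjusted p = 0.0636). The mean was -0.24 ± 0.04 (adjusted p = 0.000606). The siRNA 2 and mean calls held under every alternative run, the mean at -0.16 with the GC and length trend removed, and the siRNA 1 call was lost in 5 of 22, among them leaving out scramble replicate 3 (-0.14, adjusted p = 0.0751) or siRNA 1 replicate 3 (-0.11, adjusted p = 0.0605). The siRNA 3 value became a call in 5 of 22 alternatives, upper quartile scaling (-0.19, adjusted p = 0.00647), only genes of at least 1 CPM (-0.16, 0.0102), edgeR's exact test (-0.14, 0.0391), a fit on only the groups compared (-0.14, 0.038) and leaving out siRNA 1 replicate 3 (-0.13, 0.0228), but was -0.0016 (0.987) with the trend removed. MTRFR, on the opposite strand, overlaps 24.2% of its exon bases with 2641 to 4466 counts, and whether the authors' quantification used strand is not given in the sources used here.

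Across the 3 siRNAs, 2 members were called in the same direction with each, MTA1 higher and MBD3 lower, beside 8.00% of all genes. In 3 members, MTA1, MBD3 and CDK2AP1, the 9 siRNA libraries did not overlap the 3 scramble libraries, beside 12.1% of all genes. Both shares rest on the same 3 scramble libraries and on siRNAs of overlapping sequence, so the 3 siRNAs are not independent of each other. Annotated pseudogenes of members had at most 1 count in a library.

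The siRNAs were then compared with each other. Of the 10 members, 6 were called between siRNA 1 and siRNA 2, beside 46.7% of all genes, 7 between siRNA 1 and siRNA 3, beside 48.6%, and 3 between siRNA 2 and siRNA 3, beside 15.6%. With only the 14538 genes of at least 1 CPM tested, 9218, 9406 and 3911 were called in these comparisons, which are larger shares. GATAD2A differed in all 3 comparisons, by 0.75, 1.10 and 0.35 on the log2 scale (adjusted p = 4.54e-08, 1.61e-09 and 0.000224). MTA3 was lower with siRNA 1 than with siRNA 2 (-0.34, adjusted p = 0.000165) or siRNA 3 (-0.48, 8.96e-06), and so was CHD4 (-0.34, 0.000402, and -0.49, 1.78e-05). CDK2AP1 was lower with siRNA 2 than with siRNA 3 (-0.29, adjusted p = 0.00248). MTA1 and CHD3 were called in none of these comparisons by edgeR in this fit and the 95% interval of the siRNA 1 minus siRNA 3 difference of MTA1 was -0.12 to 0.11. With the GC and length trend removed, MTA1 was lower with siRNA 1 than with siRNA 2 (-0.32, adjusted p = 2.83e-05) or siRNA 3 (-0.23, adjusted p = 0.000398). CHD3 was called between siRNA 1 and siRNA 2 in 6 alternatives (0.16 to 0.22, adjusted p down to 0.00185), 1 of which left out siRNA 3 replicate 3, was at -0.01 (0.932) there with the trend removed, and was then called lower with siRNA 1 than with siRNA 3 (-0.20, adjusted p = 0.0085). It was called lower with siRNA 2 than with siRNA 3 in 7 alternatives (-0.31 to -0.20), 2 of which left out a library, siRNA 3 replicate 3 (-0.31, adjusted p = 0.0073) or scramble replicate 1 (-0.23, 0.0391). GATAD2B was called between siRNA 2 and siRNA 3 in 6 alternatives (0.21 to 0.23, adjusted p down to 0.00834). The siRNA 1 minus siRNA 2 difference of MTA2 was 0.29, and 0.14 with the trend removed (adjusted p = 0.00619). MBD3 was called between siRNA 1 and siRNA 3 (0.19, adjusted p = 0.00253), but the difference was 0.05 (adjusted p = 0.286) with the overlapping gene added and -0.04 (adjusted p = 0.382) with the trend removed.

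The level of a subunit relative to its paralog was examined within each library, which needs no scaling between libraries. Ratios are log2 of counts per kb of canonical transcript, and 6 pairs were tested with the two-sided exact permutation test, 9 siRNA against 3 scramble libraries, which cannot give a p below 0.00909. Each siRNA alone, 3 against 3, cannot go below 0.1. CHD3/CHD4 was -1.48, -1.59 and -1.61 in scramble, between -0.95 and -0.88 with siRNA 1, -1.47 and -1.34 with siRNA 2 and -1.36 and -1.32 with siRNA 3. CHD4 thus exceeded CHD3 in every library, and the ratio was higher in all 9 siRNA libraries than in any scramble library. The siRNA mean exceeded scramble by 0.34 (exact permutation p = 0.00909, 0.0545 adjusted by Benjamini-Hochberg over the 6 pairs), by 0.65, 0.14 and 0.22 with siRNA 1, 2 and 3. As a share of the summed level per kb of both genes, CHD3 was 25.4% ± 0.942 in scramble and 34.7% ± 0.514, 27.3% ± 0.942 and 28.4% ± 0.275 with the 3 siRNAs (SD, n = 3).

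Among the scaffolds, MTA2/MTA1 was 0.63, 0.74 and 0.67 in scramble, and averaged 0.56 ± 0.12, 0.19 ± 0.03 and 0.38 ± 0.06 with siRNA 1, 2 and 3 (SD, n = 3). MTA2 exceeded MTA1 in every library, by less in 8 of 9 siRNA libraries than in any scramble library. The difference of the siRNA mean from scramble was -0.30 (exact permutation p = 0.0273, adjusted 0.0545). MTA3/MTA1 was -1.71, -1.53 and -1.54 in scramble and averaged -2.24 ± 0.19, -1.97 ± 0.06 and -1.76 ± 0.13 with siRNA 1, 2 and 3, a difference of -0.40 (exact permutation p = 0.0182, adjusted 0.0545), with 8 of 9 below. MTA3/MTA2 differed by -0.10 (exact permutation p = 0.755) and the siRNAs went opposite ways, at -0.52, 0.11 and 0.12. MTA1 supplied 34.1% ± 0.907 of the summed MTA level in scramble and 37.3% ± 1.98, 41.7% ± 0.631 and 38.5% ± 1.14 with the 3 siRNAs.

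GATAD2A/GATAD2B was -0.29, -0.05 and 0.06 in scramble, 0.67, 0.67 and 0.72 with siRNA 1, -0.04, -0.10 and -0.03 with siRNA 2, and -0.23, -0.30 and -0.06 with siRNA 3. Only the siRNA 1 libraries lay apart among the groups, and the mean difference of 0.24 did not pass (exact permutation p = 0.5, adjusted 0.6). MBD2/MBD3 was -0.45, -0.34 and -0.40 in scramble, averaged -0.39 ± 0.04 with siRNA 1, -0.06 ± 0.03 with siRNA 2 and 0.04 ± 0.02 with siRNA 3, and differed by 0.26 in the mean (exact permutation p = 0.0727, adjusted 0.109). With siRNA 1 the ratio differed from scramble by 0.01, while with siRNA 2 and siRNA 3 it was above scramble in 6 of 6 libraries. No pair passed 0.05 after adjustment. Over 6 pairs, a pair at the smallest possible p passes only if other pairs also have a low p. CHD3/CHD4 was at that smallest p, so the adjusted test could not decide on it by itself.

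**Figure D3:**
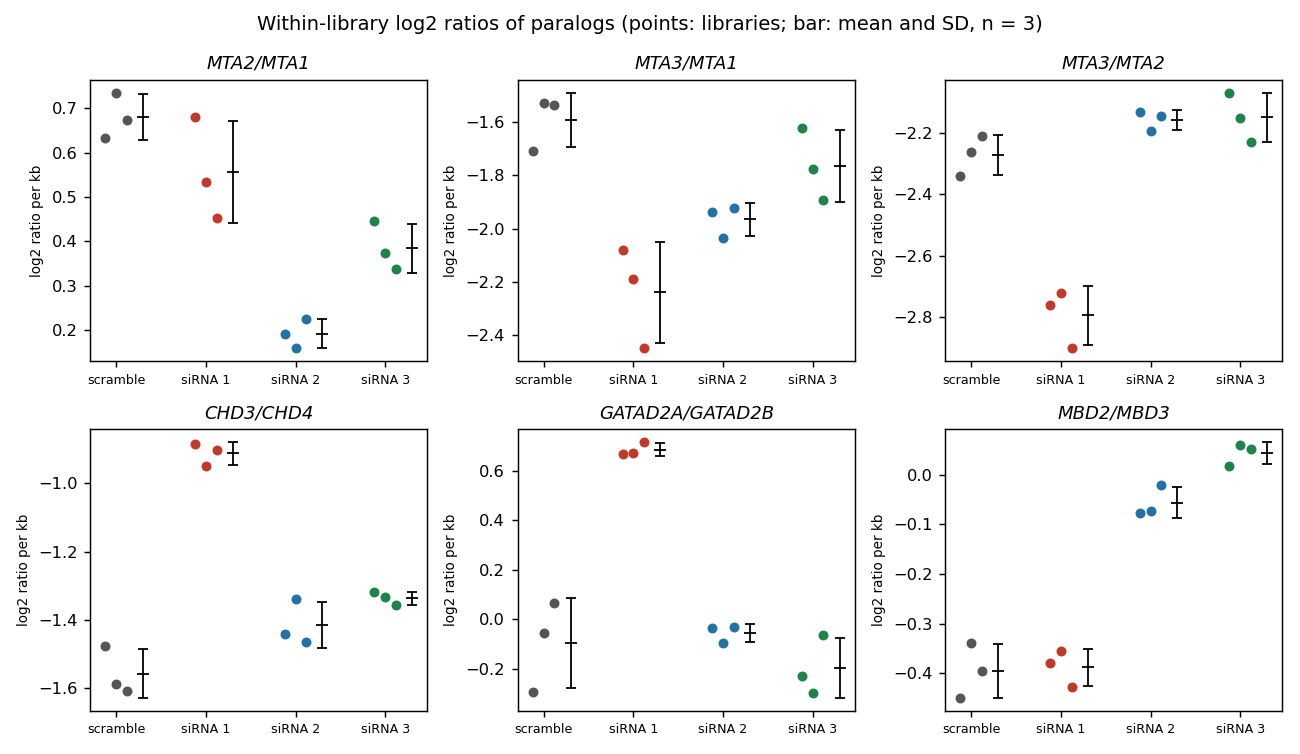
Within-library log2 ratio of 6 paralog pairs, per kb of canonical transcript (vertical axis), in the scramble, siRNA 1, siRNA 2 and siRNA 3 groups. Points are libraries and bars the mean and SD of 3. CHD3/CHD4 is above scramble in all 9 siRNA libraries, MTA2/MTA1 and MTA3/MTA1 are below it in 8 of 9, and MBD2/MBD3 is above it with siRNA 2 and siRNA 3.

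Compared per length, in CPM per kb of canonical transcript, the members in scramble ran from CHD4 (64.8 ± 1.99, SD, n = 3) and MTA2 (57.5 ± 1.15) through CDK2AP1 (45.8 ± 1.90), MTA1 (35.9 ± 1.99) and CHD3 (22.1 ± 1.62) to GATAD2B (15.2 ± 1.53), GATAD2A (14.1 ± 0.385), MTA3 (11.9 ± 0.400), MBD3 (11.0 ± 0.540) and MBD2 (8.36 ± 0.127). GATAD2A and GATAD2B overlapped over the 3 libraries, the other neighbours in this order did not, and MTA3 and MBD3 were separated by less than their SDs summed. With the union of annotated exons as the length, CDK2AP1 moved from 45.8 to 10.2 and MTA1 from 35.9 to 14.8. MTA2 (41.6) was then above CHD4 (33.1), and MTA3 (6.13) was below MBD3 (7.89) and MBD2 (7.44). Places in this order, the highest and the lowest included, thus depend on the length used.

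**Figure D4:**
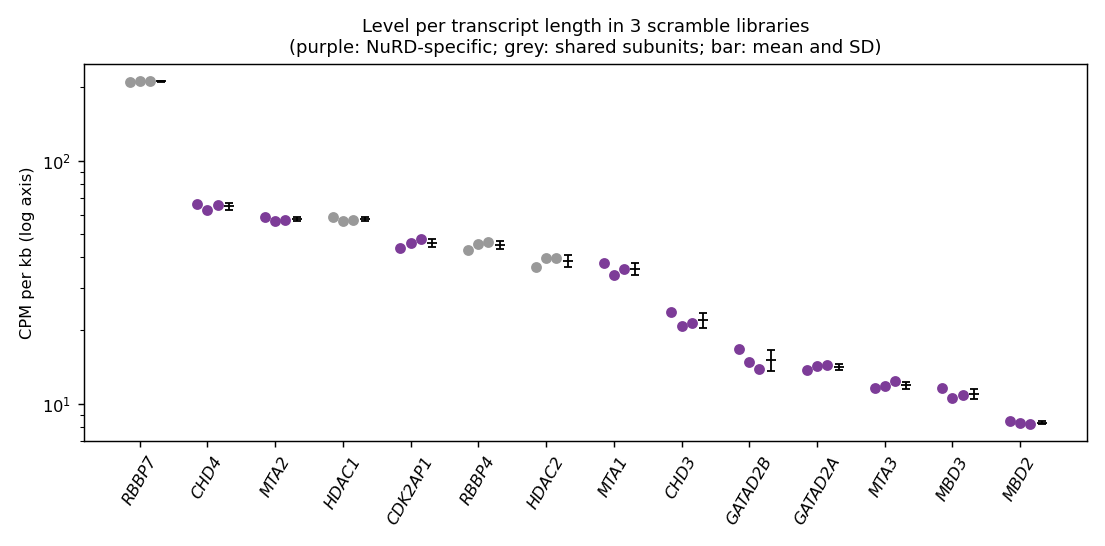
Level in CPM per kb of canonical transcript (log axis) of the NuRD-specific subunits (purple) and the shared subunits (grey) in the 3 scramble libraries (points), with mean and SD beside them. By this length RBBP7 is the highest of the 14 genes, CHD4 the highest and MBD2 the lowest of the NuRD-specific subunits. With exon unions as the length, MTA2 was the highest and MTA3 the lowest of the NuRD-specific subunits.

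The profiles of members over the 12 libraries are given as a description, since libraries of a group are alike by design. MTA3 and CHD4 had the highest Pearson's r of any pair (0.94, log2 CPM), and GATAD2A ran opposite to both (-0.93 and -0.94). All 3 genes stood apart in the siRNA 1 libraries. Among 13837 genes averaging 1 CPM or more, those most like MTA1 included the collagen prolyl hydroxylase genes P3H1 (r = 0.97) and P3H3 (0.95), the T-box repressor TBX2 (0.93) and the kinase CDK16 (0.91).

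Of the 4 subunits that NuRD shares with other complexes, 2 passed the test in the siRNA mean, both higher, beside 32.2% of all genes called and 15.6% called higher (list median 0.17, against -0.04 over all genes). With siRNA 1, 2 and 3 alone, 3, 3 and 4 of them were called, beside 45.2%, 25.8% and 29.4% of all genes. HDAC1, a deacetylase, stood at 120 to 124 CPM in scramble and 142 to 184 in the siRNA libraries, and rose with siRNA 1, 2 and 3 by 0.27, 0.53 and 0.55 on the log2 scale (adjusted p = 6.47e-05, 7.66e-07 and 5.31e-07). RBBP7, a histone chaperone, rose by 0.31, 0.15 and 0.25 (adjusted p = 1.02e-05, 0.00664 and 0.000146). Their paralogs HDAC2 and RBBP4 did not pass in the mean of the siRNAs (0.10, adjusted p = 0.0968, and 0.07, adjusted p = 0.258), with values of -0.10 and -0.16 with siRNA 1 against 0.24 and 0.23 with siRNA 3. With single siRNAs, HDAC2 was called higher with siRNA 2 and siRNA 3, and RBBP4 lower with siRNA 1 and higher with siRNA 3. The HDAC2 calls with siRNA 2 and siRNA 3 were lost in 10 and 1 alternatives, and the siRNA 1 call of RBBP4 in 6. RBBP4 with siRNA 2 became a call in 5. In the mean, both HDAC2 and RBBP4 became calls without siRNA 1 replicate 3 (0.13, adjusted p = 0.0132, and 0.09, adjusted p = 0.0476).

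Other lists of related genes were counted in the mean of the 3 siRNAs, in which 32.2% of all genes were called, 15.6% higher and 16.6% lower. Of 18 genes listed as NuRD partners, 8 were called higher and 2 lower (median 0.19, against -0.04 over all genes). The list also holds CHD5 and CDK2AP2, which are paralogs of members. With siRNA 1, 2 and 3 alone, 13, 4 and 8 were higher and 3, 3 and 2 lower, beside 45.2%, 25.8% and 29.4% of all genes called. TRPS1, a zinc finger repressor, rose by 0.41 ± 0.06 (adjusted p = 0.000324), and CDK2AP2, the paralog of CDK2AP1, fell by 0.36 ± 0.07 (adjusted p = 0.00222). CDK2AP2 stood at 8.69, 8.61 and 9.84 CPM in scramble and at 6.29 to 7.87 in the 9 siRNA libraries, all of them below scramble. SALL3 had 0 to 82 counts in a library and CHD5 had 45 to 224, and both enter the counts and median of this list. Neither is described further. Of 19 subunits of other HDAC1 and HDAC2 complexes (SIN3, CoREST, MiDAC and MIER), 3 were higher and 4 lower (36.8% called, close to the share of all genes, median 0.02). With siRNA 1, 2 and 3 alone, 5, 3 and 7 were higher and 8, 2 and 1 lower, beside 45.2%, 25.8% and 29.4% of all genes called. Between siRNA 1 and siRNA 2 or siRNA 3, 14 were called each time, beside 46.7% and 48.6% of all genes. In the mean, SAP30 was at 0.39 ± 0.05 (adjusted p = 8.17e-05) and RCOR3 at -0.23 ± 0.03 (adjusted p = 0.000153). RCOR3 was at -0.59 with siRNA 1 and 0.01 with siRNA 3. Of 6 CHD genes outside NuRD, 1 was lower, CHD2 (-0.23 ± 0.06, adjusted p = 0.0107), and of 5 other MBD family genes, MBD5 and MBD6 were higher (0.17 and 0.26) and MBD4, a DNA glycosylase, was lower (-0.23 ± 0.03, adjusted p = 0.000227). Without scramble replicate 1, CHD2 was at -0.18 and its call was lost (adjusted p = 0.0814), and without siRNA 3 replicate 1 or 3, 2 of the 6 CHD genes were called. With siRNA 1, 2 and 3 alone, 3, 1 and 2 of these CHD genes and 2, 3 and 4 of the MBD genes were called. The CHD values with siRNA 1 ran from -0.57 to 0.50.

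**Figure D5:**
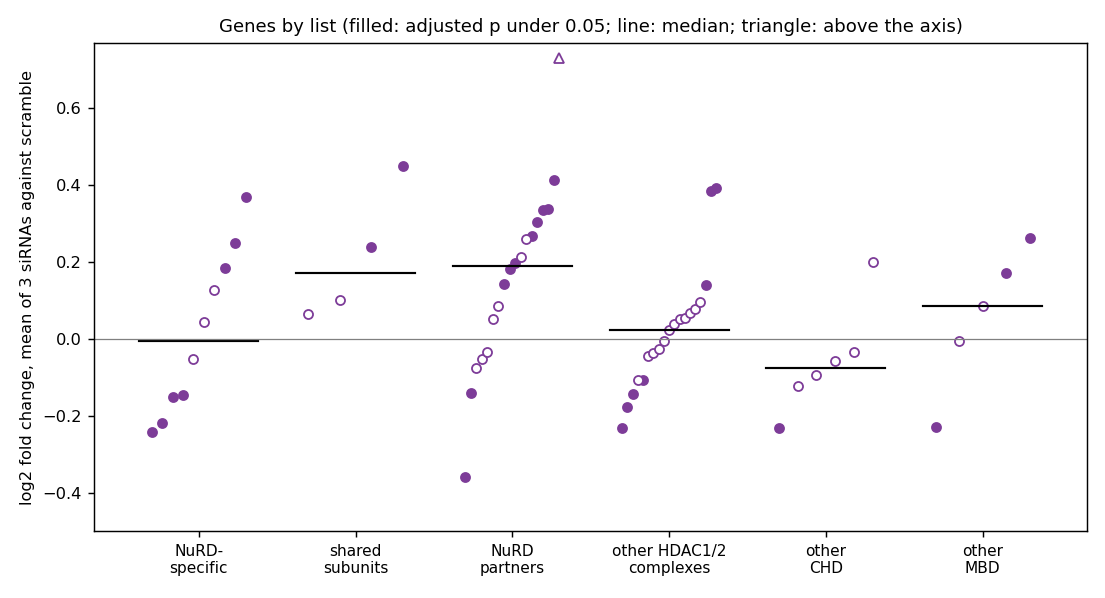
Log2 fold change of the mean of the 3 siRNAs against scramble (vertical axis) for genes of 6 lists, sorted within each list. Filled points have an adjusted p under 0.05 by edgeR, lines are list medians, and the triangle is SALL3, which lies above the axis at 2.38. The medians are near 0 for the NuRD-specific subunits and 0.19 for the NuRD partners.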

How the data were processed

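Poly(A)+ RNA of HEK293T cells (4 groups of 3 libraries) was sequenced after 48 h of siRNA. The authors trimmed reads (Trim Galore) and quantified them with Salmon on hg38, and deposited estimated counts per Ensembl gene. The transcriptome release, the summing to genes and the use of strand are not given in the sources used here. The values are fractional and were rounded to whole numbers. Symbols, positions and lengths came from GENCODE release 44 (GRCh38), which held 58160 of the 63541 rows.

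Groups came from the sample titles. One edgeR 4.0.16 fit in R 4.3.3 covered all 12 libraries with 1 coefficient per group (TMM, filterByExpr, quasi-likelihood test, Benjamini-Hochberg over 21999 genes). The common biological coefficient of variation was 0.117. The script was tested on simulated data. Paralog ratios used exact permutation tests (scipy 1.17.1) and a pseudocount of 0.5 counts. Alternatives were RLE and upper quartile scaling, other filters, edgeR's exact test, which the study used, DESeq2 1.42.0, fits on only the groups compared, a replicate block, each library left out, and, chosen after seeing the data, removal of a spline trend (5 degrees of freedom) on GC content and length, and addition of overlapping same-strand genes.

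The members and lists were chosen with earlier results of these data known. Named genes were all members, the shared subunits, the largest called rise and fall in the mean of the siRNAs in each other list, the 5 genes most like MTA1 and genes overlapping a member. One of the genes most like MTA1 is not reported here. MBD5, SALL3 and CHD5 were named after their values were seen. The labels name no batch. By the study's methods, control and treated cells were handled in tandem and the 3 replicates were processed on 1 day. What a replicate number marks is not stated in the labels.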

Additional observations from a re-analysis of the deposited data

Results flagged for a closer look

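The siRNAs share 1 target and 1 set of scramble libraries, and the members below differed between them by edgeR's quasi-likelihood test with Benjamini-Hochberg adjustment over all tested genes, in 3 libraries of each siRNA. Every difference is a test of the siRNAs against each other. The log2 difference of siRNA 1 minus siRNA 2 was 0.29 for MTA2 (adjusted p = 2.54e-05), -0.34 for MTA3 (adjusted p = 0.000165), -0.34 for CHD4 (adjusted p = 0.000402), 0.75 for GATAD2A (adjusted p = 4.54e-08), -0.23 for MBD2 (adjusted p = 0.000287) and 0.25 for CDK2AP1 (adjusted p = 0.00137). The log2 difference of siRNA 1 minus siRNA 3 was 0.17 for MTA2 (adjusted p = 0.00223), -0.48 for MTA3 (adjusted p = 8.96e-06), -0.49 for CHD4 (adjusted p = 1.78e-05), 1.10 for GATAD2A (adjusted p = 1.61e-09), 0.22 for GATAD2B (adjusted p = 0.0319), -0.24 for MBD2 (adjusted p = 0.000155) and 0.19 for MBD3 (adjusted p = 0.00253). The log2 difference of siRNA 2 minus siRNA 3 was -0.13 for MTA2 (adjusted p = 0.0312), 0.35 for GATAD2A (adjusted p = 0.000224) and -0.29 for CDK2AP1 (adjusted p = 0.00248). The GATAD2B difference lost its call without siRNA 1 replicate 1 (0.17, adjusted p = 0.125), siRNA 1 replicate 2 (0.21, 0.076) or siRNA 3 replicate 3 (0.15, 0.135). The MTA2 difference between siRNA 2 and siRNA 3 lost its call in 10 alternatives, 7 of which left out a library (-0.14 to -0.10, adjusted p up to 0.116). With a trend on GC content and length removed, the siRNA 1 minus siRNA 2 and siRNA 1 minus siRNA 3 differences of MTA2 were 0.14 (adjusted p = 0.00619) and 0.02 (adjusted p = 0.763), the siRNA 1 minus siRNA 2 difference of CDK2AP1 was 0.16 (adjusted p = 0.0531), and the siRNA 1 minus siRNA 3 difference of MBD3 was -0.04 (adjusted p = 0.382). With the overlapping same-strand gene added to its counts, the MBD3 difference was 0.05 (adjusted p = 0.286). MTA1 and CHD3 had no such difference in this fit, but with the trend removed MTA1 was called between siRNA 1 and each other siRNA and CHD3 between siRNA 3 and each other siRNA, and CHD3 was called between siRNA 1 and siRNA 2 in 6 other alternatives. The cause of the differences was not tested.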

How the results depend on the processing

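Of 70 comparisons of members between groups (10 genes, 7 contrasts), DESeq2 size factors within edgeR changed no call, and of 27 calls against scramble, 15 held under all alternatives run. Of 1520 values of members under alternatives, 1383 kept their direction and side of the threshold, 87 lost a call, 48 gained one and 2 reversed. These were the siRNA 1 minus siRNA 2 and siRNA 1 minus siRNA 3 differences of MBD3, at -0.19 (adjusted p = 0.0015) and -0.044 (adjusted p = 0.382) with the GC and length trend removed. That removal, over the 94.1% of tested genes with both values, left 6 members called with siRNA 1 and 6 between siRNA 2 and siRNA 3, gave 2 calls among the other CHD genes, and gave paralog differences of -0.42 for MTA3/MTA1, 0.32 for CHD3/CHD4 and 0.30 for MBD2/MBD3, each with an exact permutation p adjusted to 0.0182. It changed the genes called with siRNA 2 to 4113 higher and 1838 lower and with siRNA 3 to 4856 and 2007. Of its 20691 genes, 9306 were called with siRNA 1 and 3404 between siRNA 2 and siRNA 3. Testing only genes of at least 1 CPM gave 7 members with siRNA 3, beside 6487 of 14538 genes. DESeq2 gave 5 members between siRNA 2 and siRNA 3, beside 4026 of 21999 genes. The mean contrast has no edgeR exact test, and a fit on only the groups compared is the same fit there. The cause of these changes was not tested.

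Leaving out single libraries gave 6 to 10 members called with siRNA 1, 5 to 7 with siRNA 2, 3 to 6 with siRNA 3, 4 to 7 in the mean, 6 to 7 between siRNA 1 and siRNA 2 and between siRNA 1 and siRNA 3, and 2 to 4 between siRNA 2 and siRNA 3. In these runs 22434 to 22651 genes were tested. Of all genes, 8606 to 10062, 4251 to 6269 and 4983 to 7009 were called with siRNA 1, 2 and 3, and 5438 to 7606 in the mean. Between siRNA 1 and siRNA 2, siRNA 1 and siRNA 3, and siRNA 2 and siRNA 3 they numbered 9020 to 10397, 9356 to 10697 and 2215 to 3830. The same runs gave 2 to 4 shared subunits (4 without siRNA 1 replicate 3), 10 to 11 partners, 5 to 8 subunits of other complexes, 0 to 2 other CHD genes and 3 to 4 other MBD genes. Paralog differences ran from -0.34 to -0.28 for MTA2/MTA1, -0.46 to -0.34 for MTA3/MTA1, -0.13 to -0.03 for MTA3/MTA2, 0.29 to 0.38 for CHD3/CHD4, 0.14 to 0.32 for GATAD2A/GATAD2B and 0.23 to 0.30 for MBD2/MBD3, with adjusted p under 0.05 for MTA2/MTA1 (0.0364), MTA3/MTA1 (0.0485) and CHD3/CHD4 (0.0364) without siRNA 1 replicate 1, and for MTA3/MTA1 and CHD3/CHD4 (0.0364 each) without siRNA 3 replicate 1.

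With exon unions as lengths, scramble levels in CPM per kb were 14.8 for MTA1, 41.6 for MTA2, 6.13 for MTA3, 14.8 for CHD3, 33.1 for CHD4, 10.9 for GATAD2A, 12.3 for GATAD2B, 7.44 for MBD2, 7.89 for MBD3 and 10.2 for CDK2AP1.

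Replicate numbers were checked for pairing: 4 of 18 pairs of same-numbered libraries had correlated deviations over 0.1, and 6 of 12 libraries correlated best with their own number. Correlations of same-numbered libraries ran from -0.53 to 0.48 (median -0.04), against a median of 0.01 for other numbers. Such mixed values cannot settle whether same-numbered libraries share more than a number. With a replicate block, 10, 6, 4 and 7 members were called with siRNA 1, 2 and 3 and in the mean, and 5 in place of 3 between siRNA 2 and siRNA 3, with 9653, 5336, 6162 and 6801 genes called in all against scramble. Between siRNA 2 and siRNA 3, 3096 genes were called in all. Within the block, CHD3/CHD4 differed by 0.34 (exact permutation p, adjusted 0.125). Fewer arrangements are possible within the block, so its smallest possible p is higher than without it.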
